A study of Mus musculus with 12 samples.

Results

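The receptors described here are 10 members of the costimulatory and inhibitory receptor families of T cells, Icos, Cd28, Ctla4, Pdcd1, Btla, Lag3, Tigit, Cd200, Havcr2 and Cd160. They were chosen by name, with earlier results of these data known, and all 10 were found among the 24561 genes of the count table. T cell activation needs a signal from the antigen receptor together with a second signal from costimulatory receptors, and inhibitory receptors restrain it. In follicular helper T (Tfh) cells, which help B cells in germinal centers, ICOS and PD-1 are the best known of these receptors, since ICOS signaling through PI3 kinase is required to form and keep Tfh cells and a high surface level of PD-1, together with the chemokine receptor CXCR5, is used to identify them. BCL6 is the transcription factor that directs Tfh differentiation.

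RNA was measured in CXCR5hi PD-1hi OT-II Tfh cells, T cells with a transgenic receptor for ovalbumin on a C57BL/6 background, taken from draining lymph nodes on day 3 of an immunization with NP-OVA, LPS and alum. The BCL6-insufficient group carried CD4-Cre and Bcl6 fl/+, so that an allele of Bcl6 can be deleted in T cells, and the wild-type group carried CD4-Cre alone, so that both groups carried Cre under Cd4 control, which acts in thymocytes before CD4 and CD8 T cells part. The donor T cells had been transferred into CD45.1 Sap-/- recipients, which have T cells of their own but lack SAP, the adaptor that T cells need for sustained help to B cells. Each group held 3 recipient mice and each mouse was sequenced as 2 technical repeats of some 200 cells, which makes 12 libraries. Neither the ages of the mice nor the number of donors behind each group is given in the sources used here, and if the mice of a group shared a donor, donor and genotype cannot be told apart. P-values measure the spread between these mice.

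The total count per library was between 3343375 and 8315722 in BCL6-insufficient cells and between 5240715 and 7266106 in wild-type cells. The repeats of a mouse were summed, and 12719 genes passed edgeR's filter on low counts and were tested with its quasi-likelihood test, with Benjamini-Hochberg adjustment over all of them. A gene was called at an adjusted p under 0.05. Of all tested genes, 18% were called, 9.17% higher and 8.82% lower in BCL6-insufficient cells. Levels are given as normalized CPM, CPM being a count scaled to the size and composition of its library. Bcl6 mRNA itself was more abundant in libraries that carry the BCL6-insufficient label, at 149 ± 2.18 CPM (SD, n = 3) against 62.4 ± 11.5 (log2 fold change 1.25, SE 0.12, adjusted p = 6.30e-07, edgeR), so every direction here rests on the labels, and BCL6-insufficient and wild-type are used throughout as the names of the labelled groups. The defining T cell marker Cd3e was between 385 and 471 CPM against 474 to 564 in wild-type mice, Cd4 between 336 and 487 against 462 to 589 (adjusted p = 0.0665 and 0.0446, edgeR). The T cell receptor constant genes Trac, Trbc1 and Trbc2 were called higher, with log2 fold changes of 0.55, 0.29 and 0.51 (adjusted p = 0.000151, 0.0312 and 0.000209, edgeR). Cxcr5 was 241 ± 17.7 against 317 ± 11.9 (log2 fold change −0.40, adjusted p = 0.00476, edgeR). Cd8a had at most 2 counts in a library, while Cd8b1 was at 25.7 ± 5.57 CPM in BCL6-insufficient mice and 34.1 ± 6.92 CPM in wild-type mice, and Foxp3 was at most 5.78 CPM in any mouse.

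Of the 10 receptors, 9 were tested and 4 were called, which is 44.4% of those tested beside 18% of all genes. Because the receptors were chosen with earlier results known, this share cannot test whether receptors are called more often than other genes. Icos rose in BCL6-insufficient Tfh cells, while Pdcd1, Tigit and Lag3 fell. Only 2 receptors were called with repeat 1 alone, and 2 without repeat 2 of wild-type mouse 3. Cd28, Ctla4, Btla, Cd200 and Cd160 did not pass the test, and Havcr2 had too few counts to be tested. The median log2 fold change was 0.01 over the 9 receptors and 0.01 over all tested genes. The 3 mice of each group did not overlap for 4 of the 9 receptors, beside 34.4% of all tested genes. In bulk samples of sorted cells, fewer cells expressing a receptor and less receptor RNA per cell cannot be told apart.

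**Figure D1:**
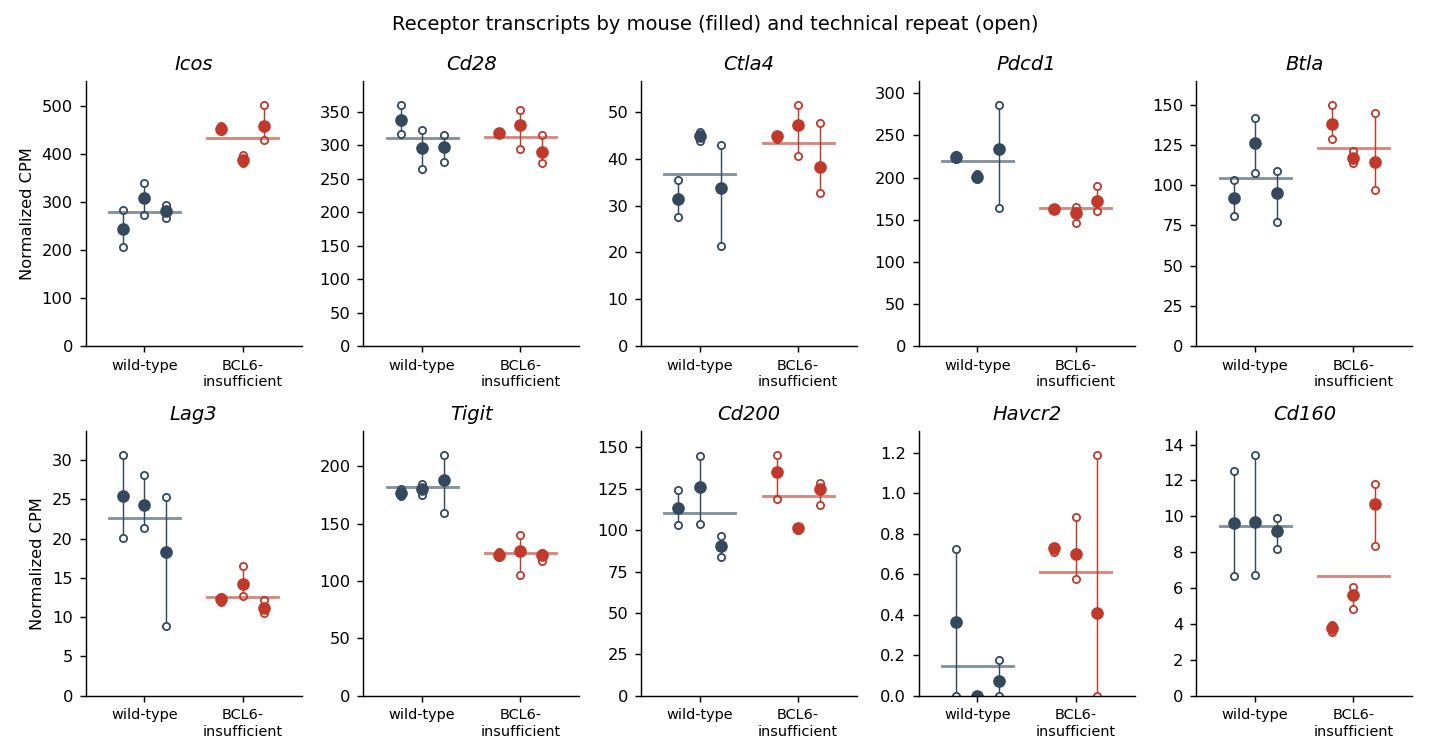
Normalized CPM (vertical axis, from 0 in each panel) of the 10 receptors in wild-type and BCL6-insufficient Tfh cells. Filled points are mice with the repeats summed and open points are the technical repeats. The mice of the groups are apart for Icos, Pdcd1, Tigit, Lag3 and the barely counted Havcr2, and overlap for Cd28, Ctla4, Btla, Cd200 and Cd160.

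The regulatory sequence just before the start of a gene is shown for Pdcd1 and Tigit, the inhibitory receptors of higher level that fell together. The promoter table used here, made from RefSeq, was matched for 7 of the 10 receptors. The promoters of Icos, Cd28 and Lag3 were not analysed here. The 250 bases before the start are printed 5′ to 3′ on the strand of the gene, from GRCm38.p6 at chr1:94052554-94052803 (minus strand) for Pdcd1 and chr16:43664185-43664434 (minus strand) for Tigit. Capitals mark a match to any of 5 short motifs, which were searched on both strands and do not overlap in these windows.
Pdcd1: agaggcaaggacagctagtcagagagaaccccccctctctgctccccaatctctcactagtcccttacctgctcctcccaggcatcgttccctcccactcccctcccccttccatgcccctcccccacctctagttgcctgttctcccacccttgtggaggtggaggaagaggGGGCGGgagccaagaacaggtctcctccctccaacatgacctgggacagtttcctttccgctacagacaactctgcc
Tigit: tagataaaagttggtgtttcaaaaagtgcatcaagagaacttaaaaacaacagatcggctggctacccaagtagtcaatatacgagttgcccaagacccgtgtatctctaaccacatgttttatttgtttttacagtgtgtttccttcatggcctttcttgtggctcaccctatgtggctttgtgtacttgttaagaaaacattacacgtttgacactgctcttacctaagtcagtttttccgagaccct
The motifs were the core shared by STAT factors and BCL6 (TTCNNNGAA, in 7.02% of 32851 promoters of the same length), the NFAT core TGGAAA (18.6%), the E-box CAGGTG (17.2%), the GC box GGGCGG (32.7%) and the TATA box TATAAA (12.4%). The Pdcd1 window held a GC box 77 bases before the start and had 60.4% G and C. The Tigit window held no match and had 40% G and C, so these letters were not shared by the pair. A match is only a run of letters, and no binding was measured.

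Icos and Cd28 are costimulatory receptors of the same family. Icos (ENSMUSG00000026009.14, chr1:60977927-61000320, plus strand) binds ICOS ligand, which B cells and dendritic cells display. It was at 452, 388 and 457 CPM in BCL6-insufficient mice 1 to 3 and at 244, 309 and 281 CPM in wild-type mice 1 to 3. Every BCL6-insufficient mouse was above every wild-type mouse, and the 6 libraries of BCL6-insufficient cells, from 380 to 501 CPM, were all above the 6 wild-type libraries, from 206 to 339. The mean was 432 ± 38.4 CPM (SD, n = 3) against 278 ± 32.3, 1.56-fold higher (95% confidence interval 1.35 to 1.80), a log2 fold change of 0.64 (SE 0.10, adjusted p = 0.000147, edgeR). The exact two-sided permutation test over the 6 mice gave p = 0.1, the smallest that 3 against 3 mice allow. Icos had at least 1110 counts in each library. Its coefficient of variation was 12.3% between single repeats of a mouse, 8.89% between BCL6-insufficient mice and 11.6% between wild-type mice. The values for mice come from summed repeats, so these spreads cannot be ranked directly against the value for repeats.

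Cd28 (ENSMUSG00000026012.2, chr1:60716800-60773359, plus strand), the receptor for CD80 and CD86 on antigen-presenting cells, gave 318, 330 and 290 CPM in BCL6-insufficient mice and 338, 296 and 297 CPM in wild-type mice. The groups overlapped. The means were 313 ± 20.4 and 310 ± 23.9 CPM (SD, n = 3), a log2 fold change of 0.01 with a 95% interval from −0.18 to 0.21 (adjusted p = 0.954, edgeR). The interval gives the range of changes compatible with these mice and is not a limit of detection.

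Ctla4 (ENSMUSG00000026011.13, chr1:60887000-60915832, plus strand) competes with CD28 for CD80 and CD86 and inhibits the T cell. Its level was 44.8, 47.2 and 38.1 CPM in BCL6-insufficient mice and 31.5, 44.8 and 33.7 CPM in wild-type mice. Wild-type mouse 2 lay among the BCL6-insufficient mice. The log2 fold change of 0.24 had a 95% interval from −0.08 to 0.57 (adjusted p = 0.312, edgeR). It was between 0.14 (without wild-type mouse 1) and 0.40 (without wild-type mouse 2) when a mouse was left out, and between 0.13 and 0.39 when a library was left out (repeat 1 and repeat 2 of wild-type mouse 3), and passed in none of these fits. Cd28, Ctla4 and Icos are neighbours on chromosome 1, with 114 kb between Cd28 and Ctla4 and 62.1 kb between Ctla4 and Icos, and of these 3 genes Icos alone was called.

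Pdcd1 (ENSMUSG00000026285.7, chr1:94038305-94052553, minus strand) encodes PD-1, which recruits the phosphatase SHP-2 when bound by PD-L1 or PD-L2. Surface PD-1 was part of the sort gate, so all cells measured were PD-1hi by protein. The transcript was at 163, 158 and 172 CPM in BCL6-insufficient mice and at 224, 201 and 234 CPM in wild-type mice. All BCL6-insufficient mice were below all wild-type mice, although single libraries overlapped, from 146 to 190 CPM against 164 to 286. The mean was 164 ± 6.96 CPM (SD, n = 3) against 220 ± 16.8, a change of −25.3% and a log2 fold change of −0.42 (SE 0.10, adjusted p = 0.00420, edgeR; exact permutation p = 0.1). The widest gap between repeats was in wild-type mouse 3, at 164 and 286 CPM, and without the higher of these libraries the log2 fold change was −0.27 (adjusted p = 0.132, edgeR), which no longer passed. The call was kept in the other 11 fits that left out a library.

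Tigit (ENSMUSG00000071552.5, chr16:43648867-43664146, minus strand) binds CD155 (PVR), for which it competes with the activating receptor CD226. It was at 123, 126 and 123 CPM in BCL6-insufficient mice and at 177, 180 and 188 CPM in wild-type mice. No mouse and no library overlapped, with libraries from 105 to 140 CPM against 159 to 210. The mean fell from 182 ± 5.78 to 124 ± 2.01 CPM (SD, n = 3), a change of −31.7% and a log2 fold change of −0.55 (SE 0.10, 95% interval −0.75 to −0.35, adjusted p = 0.000381, edgeR; exact permutation p = 0.1). Tigit varied least between mice among the 9 receptors in BCL6-insufficient cells, with a coefficient of variation of 1.62%, although single repeats of a mouse varied by 11.8%. It was called in all 12 fits that left out a library. With repeat 1 alone it did not pass (log2 fold change −0.40, adjusted p = 0.0788, edgeR).

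Lag3 (ENSMUSG00000030124.2, chr6:124904361-124911705, minus strand) is a relative of CD4 that binds MHC class II and inhibits T cell activation. It was a scarcer transcript, with 41 to 194 counts per library. It was at 12.3, 14.3 and 11.2 CPM in BCL6-insufficient mice and at 25.4, 24.3 and 18.3 CPM in wild-type mice, so that the mice did not overlap. The mean was 12.6 ± 1.54 CPM (SD, n = 3) against 22.7 ± 3.79, a change of −44.3% and a log2 fold change of −0.84 (SE 0.21, 95% interval −1.27 to −0.42, adjusted p = 0.00600, edgeR; exact permutation p = 0.1). Libraries overlapped, from 10.6 to 16.5 CPM against 8.88 to 30.7, because the repeats of wild-type mouse 3 were at 8.88 and 25.4 CPM. Without the higher of these libraries the log2 fold change was −0.66 (adjusted p = 0.129, edgeR), and the call was kept in the other 11 such fits.

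**Figure D2:**
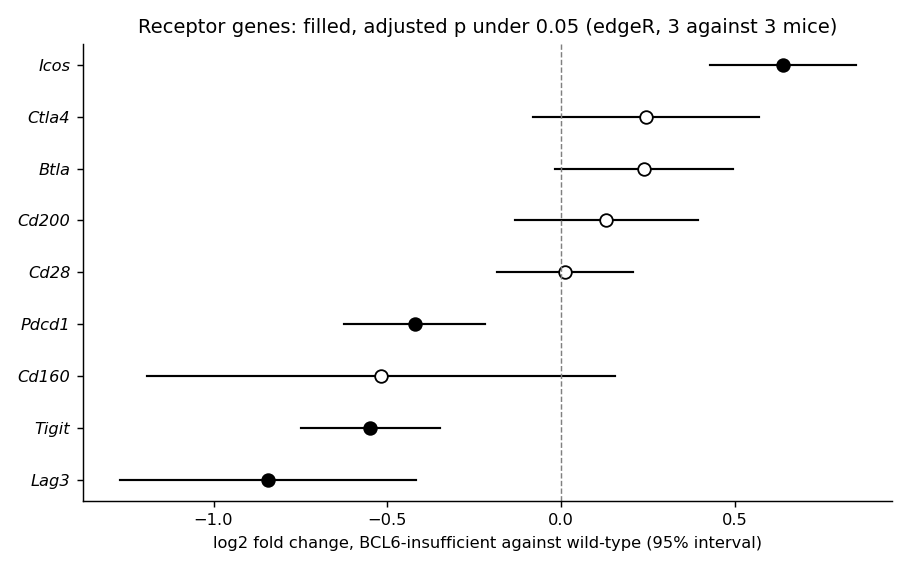
Log2 fold change of BCL6-insufficient against wild-type Tfh cells (horizontal axis) with its 95% interval for the 9 tested receptors, from edgeR with 3 mice per group. Filled points passed an adjusted p of 0.05: Icos at 0.64, Pdcd1 at −0.42, Tigit at −0.55 and Lag3 at −0.84.

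Btla, Cd160 and Cd200 belong to ligand and receptor pairs apart from the CD28 family ligands. Btla (ENSMUSG00000052013.15, chr16:45224315-45257670, plus strand), an inhibitory receptor for HVEM that Tfh cells display, was at 138, 117 and 114 CPM in BCL6-insufficient mice and at 91.8, 126 and 95.3 CPM in wild-type mice. The groups overlapped through wild-type mouse 2, and the log2 fold change of 0.24 had a 95% interval from −0.02 to 0.49 (adjusted p = 0.196, edgeR). Without wild-type mouse 1 it was 0.14, and without wild-type mouse 2 it was 0.39 (adjusted p = 0.0506, edgeR). Cd160 (ENSMUSG00000038304.14, chr3:96798763-96829351, minus strand), a second receptor for HVEM, was at 3.79, 5.60 and 10.7 CPM in BCL6-insufficient mice and at 9.62, 9.69 and 9.16 CPM in wild-type mice. BCL6-insufficient mouse 3 was the highest of the 6 and the other BCL6-insufficient mice the lowest. The log2 fold change of Cd160 was −0.52 (SE 0.33, adjusted p = 0.298, edgeR) with all mice. It was −1.02 (adjusted p = 0.0374, edgeR) without BCL6-insufficient mouse 3 and −0.23 (adjusted p = 0.702, edgeR) without BCL6-insufficient mouse 1. Cd160 shares 68 exon bases, 2.57% of its exon length, with the antisense gene Pdzk1.

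Cd200 (ENSMUSG00000022661.14, chr16:45382135-45409053, minus strand) encodes a surface glycoprotein that inhibits cells bearing the CD200 receptor. It was at 135, 101 and 125 CPM in BCL6-insufficient mice and at 114, 126 and 90.7 CPM in wild-type mice, and the groups overlapped (log2 fold change 0.13, 95% interval −0.13 to 0.39, adjusted p = 0.534, edgeR). Leaving out a mouse put Cd200 between 0.00047 (without wild-type mouse 3) and 0.24 (without BCL6-insufficient mouse 2), and leaving out a library between 0.049 and 0.23 (without repeat 1 and repeat 2 of wild-type mouse 2), with no call. Havcr2 (ENSMUSG00000020399.14, chr11:46454935-46481255, plus strand) encodes TIM-3, an inhibitory receptor of exhausted and Th1 cells. It had 22 counts over the BCL6-insufficient libraries and 5 over the wild-type libraries, with 0 to 6 in a library. The mice did not overlap, at 0.411 to 0.728 CPM against 0 to 0.366 CPM. With a filter of at least 1 count in any mouse its log2 fold change was 1.99 with an SE of 1.44 (adjusted p = 0.465, edgeR), so no difference was detectable at this depth.

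Tigit, Btla and Cd200 lie on chromosome 16, as does Bcl6 (chr16:23965052-23988852), the gene the genotype alters, at distances from Bcl6 of 19.7, 21.2 and 21.4 Mb. Of these 3 receptors Tigit was called and Btla and Cd200 were not.

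To compare levels between receptors, normalized CPM was divided by the summed exon length of each gene in GENCODE M21. On this per-kilobase scale, the order in wild-type mice was Tigit (198 ± 6.29 per kb, SD, n = 3), Pdcd1 (114 ± 8.72), Icos (81.0 ± 9.41), Cd28 (50.7 ± 3.90), Cd200 (33.2 ± 5.42), Btla (30.8 ± 5.59), Ctla4 (15.7 ± 3.06), Lag3 (10.7 ± 1.80), Cd160 (3.59 ± 0.108) and Havcr2 (0.0541 ± 0.0711). The neighbours Cd200 and Btla overlapped between mice, and the other neighbours did not. In BCL6-insufficient mice Icos, at 126 ± 11.2 per kb, stood second behind Tigit, at 135 ± 2.19, and above Pdcd1, at 85.0 ± 3.61. Icos and Tigit differed there by less than the spread of Icos between mice, and Cd200 and Btla again overlapped. The remaining order was the one seen in wild-type mice, from Cd28 (51.1 ± 3.33) to Havcr2 (0.225 ± 0.0644). The place of Tigit depends on its short annotated exon length of 0.919 kb.

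Counts can also be compared within a mouse, with no library scaling. Relative to the Cd28 counts of the same mouse, Icos counts were 142%, 118% and 157% in BCL6-insufficient mice and 72.3%, 104% and 94.5% in wild-type mice. Pdcd1 counts were 52.7% ± 5.79 (SD, n = 3) of Cd28 counts in BCL6-insufficient mice and 70.9% ± 6.70 in wild-type mice. Tigit counts were 39.8% ± 2.23 against 58.8% ± 5.73 of Cd28 counts, and Lag3 counts 4.02% ± 0.260 against 7.29% ± 1.03. The mice did not overlap for any of these 4 ratios. Cd28 was taken as the reference after its values were seen, and these are the 4 called receptors, so the ratios describe the same differences on another scale and are no separate evidence of them. For Ctla4, Btla and Cd200 the ratios to Cd28 overlapped between the groups. The count ratio of Icos to Pdcd1, the receptors most used to describe Tfh cells, was 2.78, 2.46 and 2.66 in BCL6-insufficient mice and between 1.09 and 1.54 in wild-type mice. Its mean was 2.63 ± 0.161 against 1.28 ± 0.232 (SD, n = 3), and the groups were apart. The count ratio of Icos to Tigit was 3.49 ± 0.363 against 1.53 ± 0.170, also apart, and that of Icos to Ctla4 was 10.1 ± 1.88 against 7.66 ± 0.724, where the groups overlapped (exact permutation p = 0.2). A ratio shows that the receptors changed unequally and not which of them changed.

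**Figure D3:**
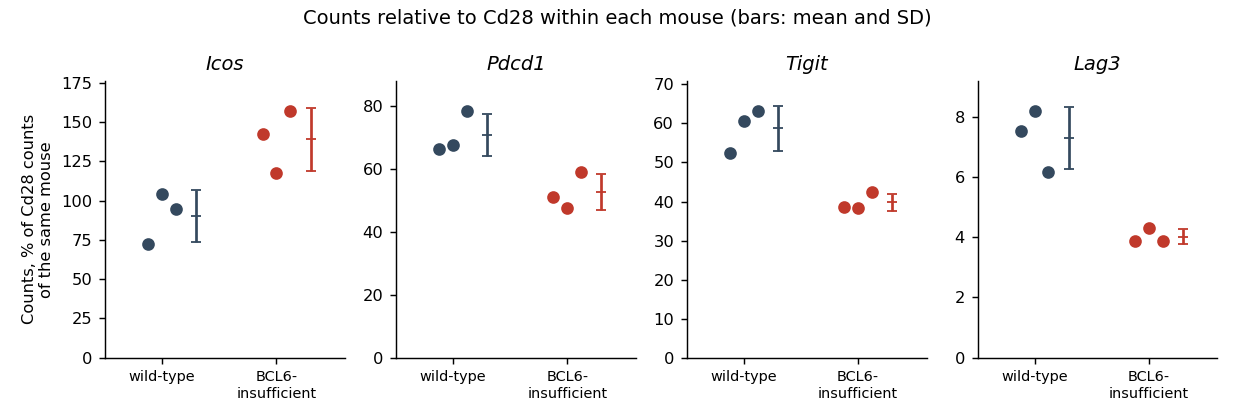
Counts of receptors as a percentage of the Cd28 counts of the same mouse (vertical axis, from 0 in each panel) in wild-type and BCL6-insufficient Tfh cells. Points are mice and bars the mean with SD, and the Icos ratio was 139% ± 20.1 in BCL6-insufficient mice against 90.3% ± 16.4 in wild-type mice.

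The technical repeats give 2 separate measurements of the same mice. With repeat 1 alone the log2 fold change of Icos was 0.85 (adjusted p = 0.000138, edgeR), and with repeat 2 alone it was 0.48 (adjusted p = 0.00389). Pdcd1, Tigit and Lag3 were called in repeat 2 alone, at −0.61, −0.71 and −0.97 (adjusted p = 0.00160, 0.000324 and 0.0174, edgeR). In repeat 1 alone they had the same sign and did not pass, at −0.17, −0.40 and −0.62 (adjusted p = 0.541, 0.0788 and 0.284). Btla was called in repeat 1 alone, at 0.62 (adjusted p = 0.0112, edgeR), and was at −0.02 in repeat 2 alone. For 8 of the 9 receptors, all but Cd160, the log2 fold change was higher in repeat 1 than in repeat 2. The difference between the repeats was not tested. Among the 9 tested receptors, the coefficient of variation between repeats of a mouse was lowest for Cd28 (10.2%), Tigit (11.8%) and Icos (12.3%) and highest for Lag3 (32.5%) and Cd160 (29.2%).

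**Figure D4:**
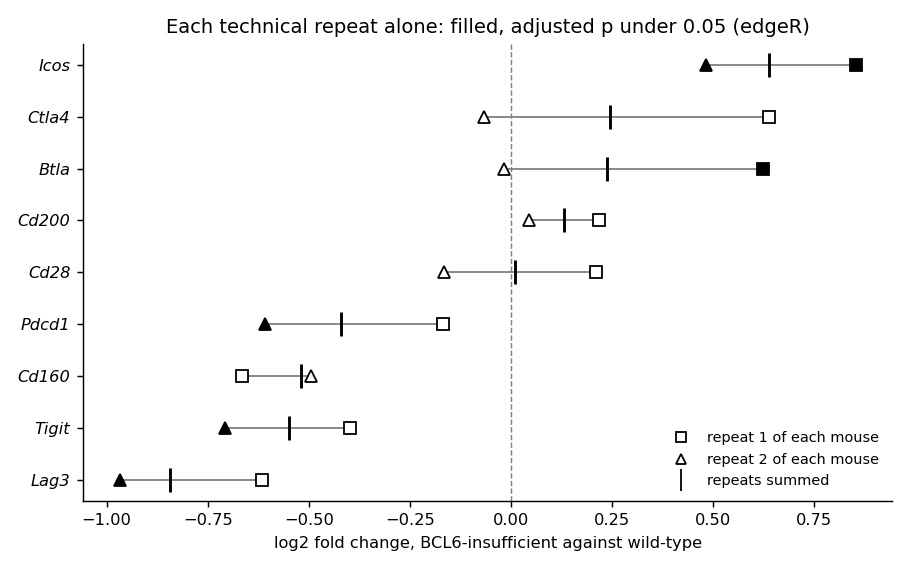
Log2 fold change of BCL6-insufficient against wild-type Tfh cells (horizontal axis) with repeat 1 of each mouse (squares), repeat 2 of each mouse (triangles) and the repeats summed (bars). Filled symbols passed an adjusted p of 0.05 in edgeR, and Icos passed in both repeats.

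Ligands and binding partners of the receptors were examined as a list of 14 genes in the table, of which 11 were tested, 1 was called higher and none was called lower, with a median log2 fold change of 0.12. The share called was 9.09%, beside 18% of all tested genes. Pdcd1lg2, which encodes PD-L2, rose from 14.0 ± 3.34 to 21.8 ± 1.96 CPM (SD, n = 3; log2 fold change 0.64, adjusted p = 0.0351, edgeR). Cd274, which encodes PD-L1, was at 20.4 ± 4.07 against 14.3 ± 3.00 CPM and did not pass (adjusted p = 0.105, edgeR). The CD28 and CTLA-4 ligands Cd80 and Cd86 and the ICOS ligand Icosl averaged at most 2.32 CPM in either group. Of the partners of the other receptors, Tnfrsf14 (HVEM) was at 11.5 against 15.3 CPM, Pvr at 14.5 against 20.7 CPM and Lgals9, a ligand of TIM-3, at 225 against 271 CPM (adjusted p = 0.286, 0.167 and 0.0522, edgeR). PD-L2 is known from dendritic cells and macrophages. Myeloid and dendritic cell markers, of which 1 of 3 tested was called higher, summed to between 15.7 and 29.1 CPM in BCL6-insufficient mice and between 8.70 and 12.4 CPM in wild-type mice, with Lyz2 at 3.19 to 16.5 against 0.0916 to 2.04 CPM and Csf1r at 9.09 ± 0.699 against 5.33 ± 0.479 CPM (SD, n = 3). Cd68 was at 1.67 to 2.67 against 2.01 to 3.15 CPM, the dendritic cell marker Zbtb46 was lower without overlap, at 0 to 0.218 against 0.601 to 1.28 CPM, and Flt3 had at most 1 count in a library. Their part in the Pdcd1lg2 result was not tested.

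Among other accessory receptors of T cells, 19 were tested, 2 were called higher and 3 lower, with a median log2 fold change of −0.11. These calls were 26.3% of those tested, beside 18% of all tested genes. Tnfrsf4, which encodes the costimulatory receptor OX40, rose from 23.7 ± 6.59 to 41.8 ± 16.4 CPM (SD, n = 3; log2 fold change 0.81, adjusted p = 0.0174, edgeR). Nt5e, which encodes CD73, an ecto-enzyme that makes adenosine, rose from 5.87 ± 0.699 to 13.3 ± 3.09 CPM (1.17, adjusted p = 0.00372). Cd96 shares the ligand CD155 with Tigit and fell from 31.7 ± 4.46 to 18.3 ± 4.31 CPM (−0.79, adjusted p = 0.00584, edgeR), while Cd226, the activating receptor for that ligand, did not pass the test, with a log2 fold change of 0.01 (SE 0.21, adjusted p = 0.978). Vsir, which encodes the inhibitory receptor VISTA, and Cd5, a negative regulator of antigen receptor signaling, fell by 0.45 and 0.34 on the log2 scale (adjusted p = 0.00946 and 0.0312, edgeR).

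Of the genes that carry costimulatory signals inside the cell, 21 were tested, 1 was called higher and 4 lower, with a median log2 fold change of 0.03. Calls made up 23.8% of them, beside 18% of all tested genes. Trat1, which encodes the adaptor TRIM of the T cell receptor complex, fell from 37.2 ± 12.1 to 15.1 ± 4.93 CPM (SD, n = 3; log2 fold change −1.30, adjusted p = 0.000469, edgeR). The kinase gene Lck was at −0.33, Pik3cd, the PI3 kinase subunit p110δ that acts downstream of ICOS, at −0.34, and the NF-κB subunit Rela at −0.35 (adjusted p = 0.0121, 0.0157 and 0.0314, edgeR). Fyn, a kinase related to Lck, rose by 0.34 on the log2 scale (adjusted p = 0.0214, edgeR).

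Of the genes of inhibitory signaling and receptor traffic, 19 were tested, 1 was called higher and 3 lower, with a median of −0.10. Calls made up 21.1% of them, beside 18% of all tested genes. Ubash3a, a suppressor of T cell receptor signaling, fell from 182 ± 3.37 to 110 ± 10.9 CPM (SD, n = 3; log2 fold change −0.72, adjusted p = 4.76e-05, edgeR). The adaptor gene Sla2 fell by 0.45 on the log2 scale (adjusted p = 0.0174). CTLA-4 protein is held inside the cell by clathrin adaptors and spared from lysosomes by LRBA. Ap2m1, a subunit of the clathrin adaptor AP-2, was at 185 ± 3.34 against 288 ± 14.0 CPM (−0.64, adjusted p = 5.91e-05, edgeR) and Lrba at 28.9 ± 8.60 against 16.0 ± 2.71 CPM (0.85, adjusted p = 0.00660). CTLA-4 protein was not measured here, and a link of these genes to it was not tested. The phosphatase genes Ptpn6 and Ptpn11, used by PD-1 and BTLA, were at 329 ± 25.2 against 323 ± 10.4 CPM and 80.8 ± 11.3 against 87.0 ± 5.63 CPM, and neither passed the test (adjusted p = 0.880 and 0.607, edgeR).

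Proteins that degrade receptor messengers were a list of 10 tested genes, of which 1 was called higher and 3 lower, with a median of −0.26. The share called was 40%, beside 18% of all tested genes. Rc3h1, which encodes Roquin-1, a protein known to repress Icos mRNA, fell from 46.3 ± 5.27 to 32.1 ± 3.80 CPM (SD, n = 3; log2 fold change −0.53, adjusted p = 0.0170, edgeR). Its paralog Rc3h2 was at 13.6 ± 3.83 against 17.0 ± 1.29 CPM (−0.32, adjusted p = 0.364). Rc3h1 was called in neither technical repeat alone, and its part in the Icos result was not tested. Zc3h12d and Zfp36l2 fell by 0.62 and 0.54 on the log2 scale and Cnot1, the scaffold of the CCR4-NOT deadenylase, rose by 0.39 (adjusted p = 0.0116, 0.0413 and 0.0262, edgeR).

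Of the 19 called genes in these 5 lists, 6 stayed called in each of the 6 fits that left out a mouse and the 12 that left out a library: Ap2m1, Nt5e, Trat1, Ubash3a, Vsir and Zc3h12d. The other 13 lost their call in at least 1 of these fits, and all 19 kept their sign. Cd96 was lost only without repeat 2 of wild-type mouse 3, the library without which Pdcd1 and Lag3 also lost their calls. Pdcd1lg2 was called in 1 of the 6 fits without a mouse, Tnfrsf4 and Cd5 in 2, Fyn and Cnot1 in 3, Rc3h1, Lck and Sla2 in 4, and Pik3cd and Lrba in 5, while Rela and Zfp36l2 were called in 0 of the 6.

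**Figure D5:**
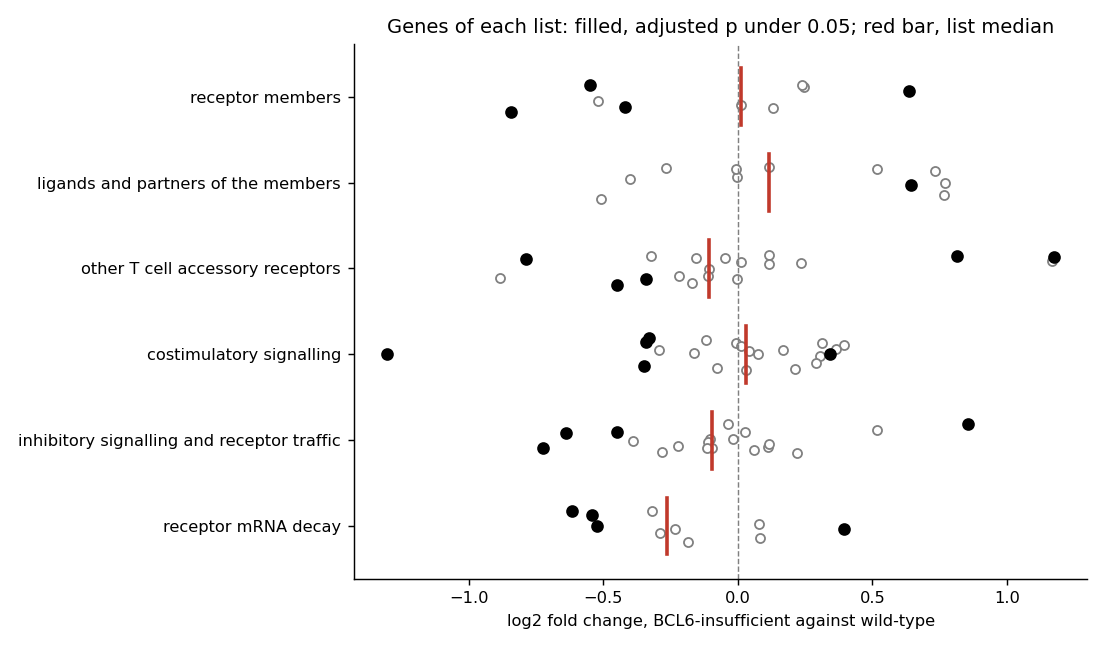
Log2 fold change of BCL6-insufficient against wild-type Tfh cells (horizontal axis) for the genes of each list (rows). Points are genes, filled where the adjusted p in edgeR was under 0.05, and red bars are list medians, which lie between −0.26 for receptor mRNA decay and 0.12 for ligands and partners.

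Markers of other cells that can carry these receptors moved in part with the groups. Counts of called markers in these lists stand beside 18% of all tested genes called. Regulatory T cells carry much Icos, Ctla4 and Tigit, and of 5 tested regulatory T cell markers 2 were called higher and none lower. Their summed level was 330 to 386 CPM in BCL6-insufficient mice and 219 to 291 CPM in wild-type mice, through Ikzf2 and Nrp1, while Foxp3 was at 2.36 to 4.32 against 4.58 to 5.78 CPM. Markers of Th1, CD8 and NK cells, which carry Lag3, Havcr2 and Cd160, had 1 of 5 called higher, with sums of 87.4 to 128 against 91.2 to 111 CPM. Most of these sums came from Cxcr3, at 66.4 against 58.4 CPM on average, and Cd8b1. The called gene was Nkg7 (log2 fold change 1.54, adjusted p = 0.0494, edgeR), and Eomes was at 0 in all libraries. Markers of B cells had none of 7 called, with sums of 509 to 724 against 603 to 859 CPM, most of it from Ighm at 533 ± 58.6 against 655 ± 96.1 CPM (SD, n = 3). Cd74 averaged at most 22.6 CPM in either group, and Cd79a, Cd79b and Igkc at most 6.92 CPM. Of naive T cell markers 1 of 8 was higher and 1 lower, with sums of 1343 to 1519 against 1315 to 1457 CPM. Of T cell markers 3 of 10 were higher and 2 lower, with sums of 13046 to 14239 against 9650 to 11422 CPM. The higher sums came mostly from Trac, at 7009 against 4771 CPM on average, and Trbc2, at 2660 against 1871 CPM. The median log2 fold change of this list was −0.0011. Of Tfh markers 2 of 11 were higher and 4 lower, with sums of 2755 to 2990 against 3093 to 3261 CPM. The part of these lists in the receptor results was not tested.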

How the data were processed

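RNA of about 200 sorted cells per library was made into SMART-Seq2 libraries by the study. Per the methods, the authors aligned reads to GRCm38 with Hisat2 (2.2.1 per the submitters' processing notes) and counted them with HTSeq. The annotation release and the strand setting are not given in the sources used here. The authors deposited raw counts per gene and library, and TPM values, which scale counts by gene length and library. TPM entered only an alternative, tested with limma.

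Counts of the 2 technical repeats were added per mouse, filtered with filterByExpr and scaled by TMM. The 3 BCL6-insufficient mice were compared with the 3 wild-type mice by the quasi-likelihood test of edgeR 4.0.16 (R 4.3.3), with p-values adjusted over all tested genes by Benjamini-Hochberg and a threshold of 0.05. The SE is the log2 fold change divided by the square root of the F statistic. Normalized CPM uses the TMM library sizes. Coordinates and exon lengths came from GENCODE M21 (GRCm38) and promoters from RefSeq. Overlapping antisense genes cannot be told apart without strand.

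The members and lists were chosen with earlier results of these data known. The genes named are the 10 receptors, Bcl6, the called genes of each list other than the cell type marker lists (at most 6 in each direction), ligands and partners of the receptors, and 7 defining markers, of which 1 is not reported here. Trac, Trbc1, Trbc2, Ptpn6, Ptpn11, Cd226, Rc3h2, Ikzf2, Nrp1, Ighm, Cd8b1, Cxcr3, Nkg7, Csf1r, Cd68, Zbtb46, Flt3 and Eomes were named after their values were seen. So were Cd74, Cd79a, Cd79b and Igkc. The list genes Fgl1, Pvrig, Lilrb4a, Lilrb4b, Ncr1, Itgax and Adgre1 were not analysed here.

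Alternatives were DESeq2 1.42.0, limma 3.58.1 (voom over 12 libraries, the mouse a random effect), each repeat alone, other scalings and count filters, log2(TPM + 1) and log2(TPM + 0.1), a replicate block, removal of GC and length trends with mgcv 1.9.3, and leaving out each mouse. Leaving out each library was added after the data were seen. Reads carry no molecular identifiers, so counts understate the error between libraries.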

Additional observations from a re-analysis of the deposited data

Results flagged for a closer look

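In each group of 6 libraries, the receptor level of the most extreme library was compared with the range of the group by Dixon's criterion at its 95% critical value. Of 20 groups tested, 2 held a library past it, and chance gives about 1 in 20. Lag3 was at 16.5 CPM in repeat 2 of BCL6-insufficient mouse 2, above the other 5 libraries of its group, which lay between 10.6 and 12.7 CPM (ratio 0.636). Havcr2 was at 0.726 CPM in repeat 2 of wild-type mouse 1, from 4 counts, while the other 5 wild-type libraries were between 0 and 0.178 CPM.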

How the results depend on the processing

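Over 20 alternatives and 12 more that leave out a single library, which were chosen after the data were seen, Icos kept its direction and its call in all 32. Tigit kept its direction in all and its call in all but repeat 1 alone. Pdcd1 and Lag3 kept their direction in all and their call in all but repeat 1 alone and the fit without repeat 2 of wild-type mouse 3. With repeat 1 alone 2 receptors were called, 2 higher and 0 lower, with Pdcd1 at −0.17, Lag3 at −0.62, Tigit at −0.40 and Btla at 0.62 (log2 fold change). It called 1059 of all genes and 8 of the genes in the pathway lists, against 2288 and 19 with the repeats summed. Repeat 2 alone called 1446 and 12 and put Cd28 at −0.17, Ctla4 at −0.066 and Btla at −0.019. The log2(TPM + 1) values called 1305 and 9, with Cd28 at −0.10 and Cd200 at −0.0043, and the log2(TPM + 0.1) values 1260 and 8, with Cd28 at −0.10 and Cd200 at −0.0043. Counts gave 1166 genes higher and 1122 lower, and log2(TPM + 1) gave 390 higher and 915 lower, and log2(TPM + 0.1) 374 and 886, where the median of all genes was −0.11 against 0.01 with counts. Cd28 was at −0.0044 with a filter of at least 1 count in any mouse, −0.063 with GC and length trends removed and −0.062 with the replicate block as well. Upper-quartile scaling gave 1331 genes higher and 957 lower. The cause of these changes was not tested.

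Leaving out each mouse gave 1424 to 1972 genes over the table, 12 to 17 in the pathway lists, Cd28 at −0.031 to 0.067 and Cd160 at −1.02 to −0.23. Leaving out each library gave 2 to 4 called receptors, of which 1 to 3 were lower, Cd28 at −0.039 to 0.054, Pdcd1 at −0.53 to −0.27, Lag3 at −0.99 to −0.66 and 13 to 20 called genes in the pathway lists. Cd28 was below 0 in 5 of these fits, at −0.039 and −0.014 without repeat 1 of BCL6-insufficient mouse 2 or 3 and at −0.021, −0.036 and −0.019 without repeat 1 of wild-type mouse 1, 2 or 3. The lowest counts of called receptors and the values nearest 0 for Pdcd1 and Lag3 came without repeat 2 of wild-type mouse 3, where Pdcd1 was −0.27 and Lag3 −0.66.

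The mice share only a replicate number. Deviations of same-numbered mice had correlations of 0.0852, −0.0283 and 0.0247 over genes, and not every mouse correlated best with its own number. With the replicate block 2579 genes were called, and Icos was at 0.64, Pdcd1 at −0.42, Lag3 at −0.84 and Tigit at −0.55, all still called. Depth limits what could be detected for Havcr2, with at most 6 counts a library. Cd160 varied by 53.5% between BCL6-insufficient mice with repeats summed (coefficient of variation), beside 29.2% between single repeats of a mouse. The 3 mice per group limit the exact test to p = 0.1.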
